A study of Saccharomyces cerevisiae with 151 samples.

Results

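Ribosome biogenesis genes were followed in budding yeast, Saccharomyces cerevisiae, across 8 strains before and after treatment with 3-aminotriazole. The members were chosen by a rule on names, set with earlier results of these data known. It took genes of the array annotation whose symbol is UTP, NOP or RRP with a number, or NOC with a digit. This gave 55 genes of the 5656 that the array names by a probe set of 1 gene: 18 UTP, 16 NOP, 18 RRP and 3 NOC genes. All 55 passed the filter on dim genes, which kept 5611 genes, and none was read from a probe set shared with other genes. NOP58, UTP20 and UTP22 have several probe sets, of which the 1 most specific and brightest was used.

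Ribosomes are built in the nucleolus from a long precursor rRNA transcribed by RNA polymerase I, which is folded, modified and cut by a large set of proteins that do not stay in the finished ribosome. UTP proteins belong to the small subunit processome around the U3 small nucleolar RNA, NOP proteins are nucleolar factors of either subunit, NOC proteins move with the maturing particles, and RRP proteins include the exosome, the complex that trims and degrades RNA from its 3′ end. In yeast these genes are known to be transcribed together with growth rate and to be turned down in many stresses.

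The strains were BY4741 wild type (WT) and BY4741 derivatives with deletion of GCN4 (gcn4), LEU3 (leu3), GAT1 (gat1), MET31 (met31), or of both genes in gat1gcn4, gcn4leu3 and gat1leu3. Gcn4 is the activator of amino acid biosynthesis genes, Leu3 a regulator of the branched-chain amino acid pathway, Gat1 a GATA factor of nitrogen control and Met31 a regulator of sulfur amino acid genes. All cultures grew in synthetic complete medium at 28 °C to an OD600 of 0.5 (time 0) and then received 3-aminotriazole (3AT, an inhibitor of histidine synthesis) at 100 mM. Time points up to 120 min (10, 20, 30, 45, 60, 90 and 120) exist for WT, gcn4, leu3 and gat1, whereas the other strains end with 60 min. Each strain was compared with its own 0 min, and no culture without 3AT was followed over time, so 3AT and time in culture cannot be told apart. In these bulk samples fewer cells of a type and less RNA per cell cannot be told apart either.

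The 151 arrays gave 45 groups of 3 arrays and 5 groups of 2, while met31 had 1 array a time and entered no test. The deposited signals were on different scales: 78 arrays had a trimmed mean of 500.5 to 500.7, and the other 73 (replicate 3 of gcn4 and leu3, all double deletions and met31) of 22.42 to 104.5. Every array was therefore rescaled to a trimmed mean of 500, and signals below are on that scale. Array number limits the precision, with a median standard error (SE) of 0.34 log2 units between groups of 3. Replicates 1 and 2 were the closest pair in 35 of 45 groups over all genes, with a median gap in the 55 genes of 0.27 log2 units, against 0.34 between 1 and 3 and 0.37 between 2 and 3. Separate cultures are not stated for the replicates, and p-values then measure only the spread between these arrays, which may be technical. The deleted genes read far below the WT median in 177 of 178 readings, the exception being GCN4 at 2285 on the gcn4 array labelled 90 min, replicate 3. In all strains a-cell genes were high and alpha-cell genes low, and BY4741 is known as an a-mating strain.

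Single failed readings had to be separated from changes in expression. Of 8305 readings of the 55 genes, 5 lay below their array's floor, the 20th percentile of its probe sets. They were NOP56 at 0.605 in leu3 at 60 min (replicate 3), RRP14 at 9.59 and UTP9 at 1.96 in gat1leu3 at 0 min (replicate 2), RRP36 at 0.0598 in WT at 30 min (replicate 2), and UTP18 at 2.7 in gat1gcn4 at 0 min (replicate 3). The median of these genes over all arrays was 1410, 1320, 508, 168 and 909 for NOP56, RRP14, UTP9, RRP36 and UTP18. These 4 arrays (leu3, gat1leu3, WT and gat1gcn4) held 32, 49, 28 and 60 of the 3050 genes with a median signal of at least 200 below their floor, where the median array held 0. Other arrays also held many such genes, though no member below the floor. They include gat1leu3 at 60 min replicate 3 (38), gcn4leu3 at 10 min replicate 3 (26) and met31 at 0 min (13). On such arrays some members read low but above the floor, and these readings were not set apart. Among them were RRP46 at 128 (median 1470) and UTP8 at 83.5 (median 599) in gat1leu3 at 0 min (replicate 2). NOP8 was at 27.3 (median 398) in WT at 30 min (replicate 2), and UTP15 at 79.8 (median 570) in gcn4leu3 at 10 min (replicate 3). Results that rest on a failed reading of a member are given with and without that array, for RRP36 only as a count of calls. Counts of members higher or lower by replicate number are given without the share of all genes. Counts of calls in alternative fits or without single arrays are given without the share of all genes called in the same fit. A shift in such a count need not be particular to the members.

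The 55 genes varied together over the strains and times. Over the 50 groups with replicates, the correlation of a gene's group means with the median of the other 54 had a median of 0.795 and reached 0.918 for UTP14, the activator of the helicase that releases U3. It was at least 0.7 for 42 genes. Below UTP14 came NOP9, an RNA-binding factor of the small subunit, at 0.91, NOP15 at 0.903 and RRP8, an rRNA methyltransferase, at 0.901. The lowest value, 0.352 for UTP18, rested on its failed reading and was 0.784 without the 4 arrays that hold such readings, a choice made after seeing the data. Without them NOP56 went from 0.534 to 0.636, RRP14 from 0.56 to 0.756 and UTP9 from 0.629 to 0.763. The genes that stayed lowest were the exosome cap subunit RRP40 (0.391 with these arrays, 0.337 without), NOP58 of the box C/D particle (0.395 and 0.366), and both UTP-C members, RRP7 (0.471 and 0.351) and UTP22 (0.505 and 0.415). These values describe shared arrays and scaling as well as the genes. The genes are scattered over 14 chromosomes in the RefSeq R64 annotation. RRP15 and NOC4 are the only members next to each other, and 6 other members neighbour a gene of another list used below. These include UTP9 beside RIX1 and NOP56 beside PWP1, and NOP9 and NOC2 beside the RNA polymerase III genes RPC17 and RET1.

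**Figure D1:**
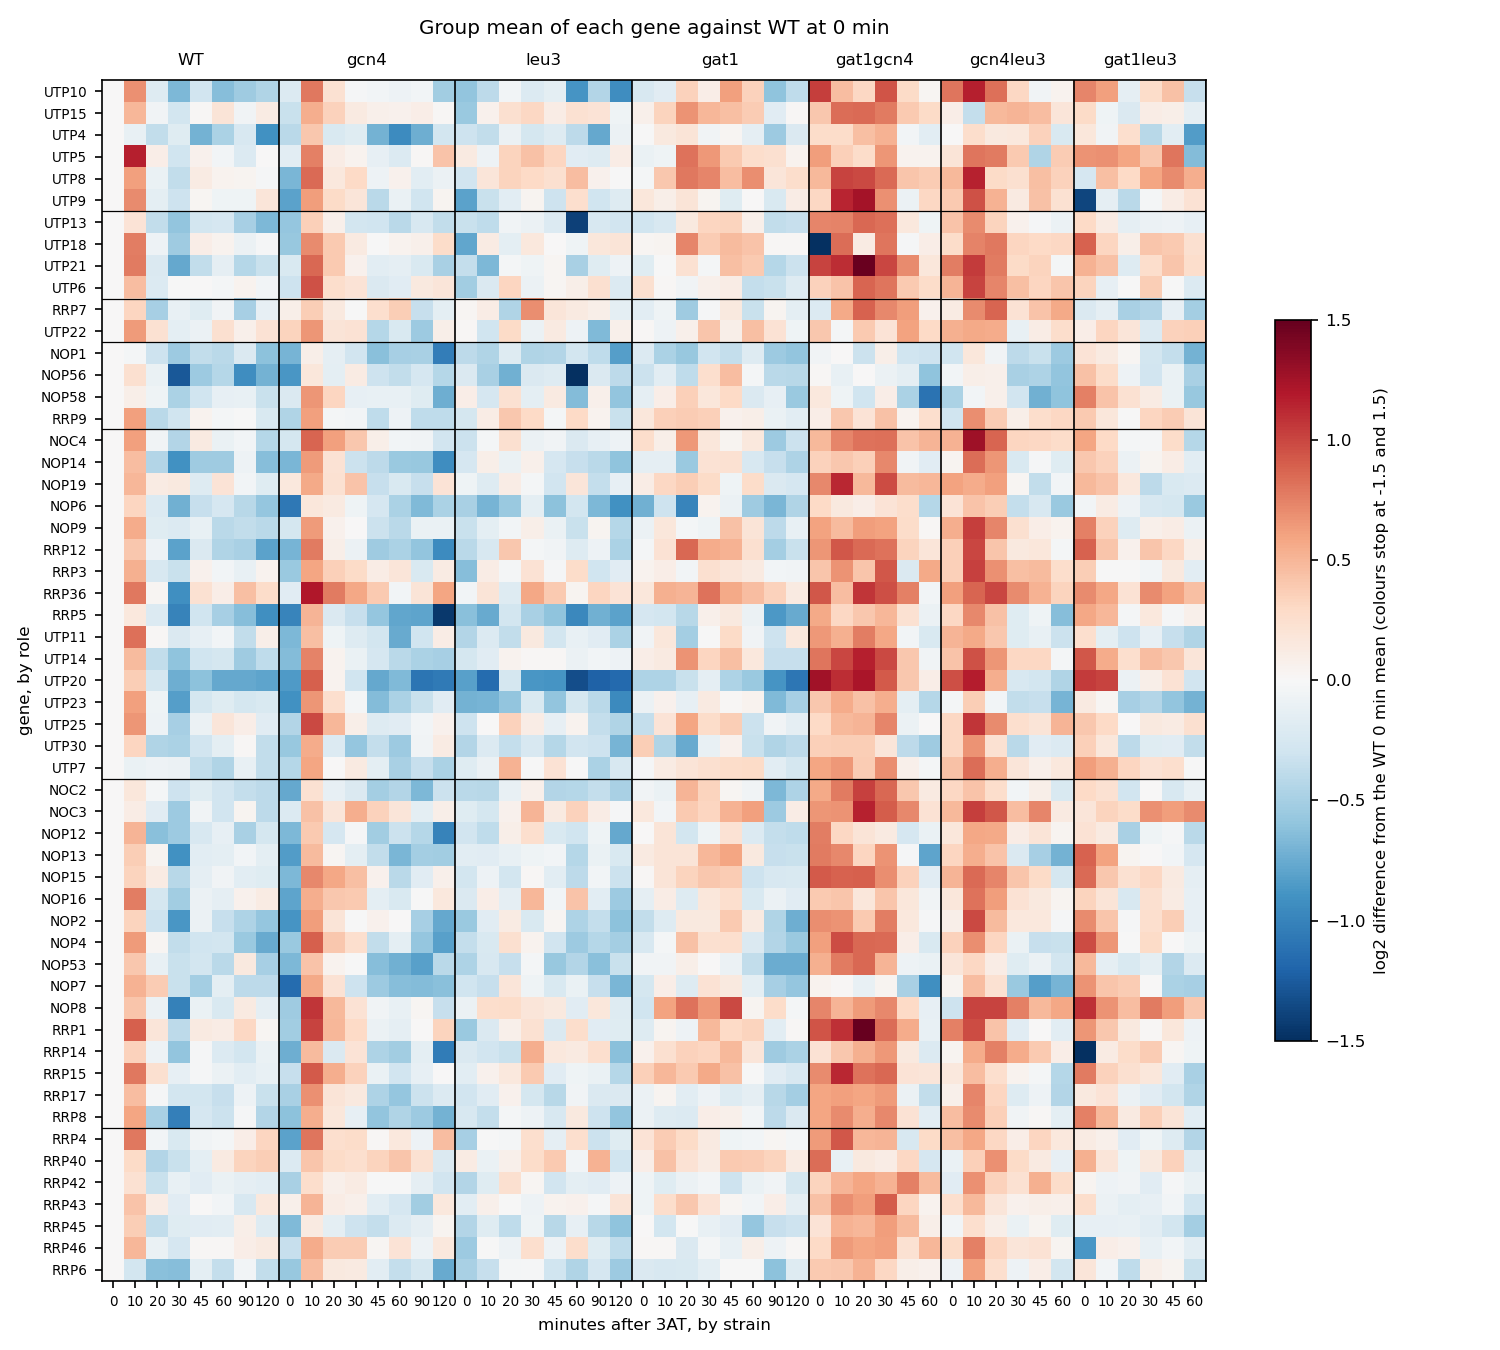
Heat map of the 55 genes (rows, by role: UTP-A, UTP-B, UTP-C, U3 and box C/D particle, other small subunit factors, large subunit factors, exosome) over the 7 strains with replicates and their times in minutes (columns), with colour showing the log2 difference of the group mean from WT at 0 min. Red columns stand at 10 min in WT, gcn4 and gcn4leu3 and over the first 30 min in gat1gcn4, and a blue column at 0 min in gcn4. The dark cells of UTP18 in gat1gcn4, of UTP9 and RRP14 in gat1leu3 and of NOP56 in leu3 hold readings below the floor.

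In WT the group was highest at 10 min. The median over the 55 genes was 0.46 log2 units above 0 min, while all tested genes had a median of -0.10. It stood above 0 for 51 of the 55 genes. In 28 genes all 3 arrays at 10 min read higher than all 3 at 0 min, against 10.5% of all tested genes. On single arrays the median of the group, set against the WT 0 min mean, was 0.43, 0.50 and 0.62 at 10 min. Within replicate numbers 40 of the 55 genes were higher at 10 min in every replicate, with the share of all genes not given. The nuclear exonuclease of the exosome, RRP6, was the 1 gene lower in every one.

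No single gene passed the test at 10 min: limma with Benjamini-Hochberg adjustment over all genes called 0 of the 55, where 1.27% of all genes were called, and 12 members had an unadjusted p under 0.05. Array weights, which count arrays far from their group for less, called 23 and the scaled arrays alone 3, all higher. Leaving out any 1 array left 0. UTP5, a subunit of the UTP-A complex that binds the nascent precursor first, read 674, 630 and 598 before 3AT and 1050, 1620 and 1740 after 10 min. Its arrays did not overlap, and its difference was the highest of the group at 1.16 (SE 0.387, adjusted p = 0.14). RRP1, a large subunit assembly factor, was at 0.89 (SE 0.287, adjusted p = 0.12). UTP11 of the small subunit processome was at 0.82. RRP4, a cap subunit of the exosome, and RRP15, a large subunit factor, were both at 0.80. At the other end RRP6 was at -0.28, UTP4 at -0.11, UTP7 at -0.10 and the methyltransferase NOP1 (yeast fibrillarin) at -0.03.

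At 30 min the same genes were low on a pair of arrays. The median change from 0 min was -0.42 and 54 of 55 genes lay below 0, but 0 were called, where 1.48% of all genes were, and 15 had an unadjusted p under 0.05. Group medians on the arrays were -0.67, -0.69 and 0.15, so that replicate 3 stood apart, and without that array 11 members were called (share of all genes not given). General stress genes moved with this split: their median on the arrays was 0.63, 0.71 and -0.44, and their part in the result was not tested. RRP5, a factor of both subunits, read 800, 866 and 983 before 3AT and 318, 419 and 603 after 30 min. Its arrays did not overlap, with a difference of -1.0 (SE 0.306, adjusted p = 0.073). RRP8 went from 1230, 1170 and 1050 to 399, 421 and 1010, a difference of -1.03 (SE 0.319, adjusted p = 0.078).

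The remaining WT times had group medians of -0.10, -0.16, -0.14, -0.11 and -0.23 for 20, 45, 60, 90 and 120 min. The 20 min value averages arrays that went both ways: by replicate number the median change was -0.24, -0.48 and 0.20, and replicate 3 had 44 of 55 genes higher. At these times limma called 0 members, where 2.21%, 1.09%, 0.82%, 0.749% and 1.23% of all genes were called; 1, 1, 0, 2 and 6 members had an unadjusted p under 0.05. At 120 min 16 members had all arrays below those at 0 min, against 16.1% of all genes. Taken over the 7 later times together, limma's F-test called 8 of the 55 members, where it called 7.2% of all genes. They were NOP4 (adjusted p = 0.00461), RRP8, RRP12, NOP7, RRP5, UTP23, RRP9 and RRP36. The count was 3 without WT at 30 min replicate 2, the array with the failed RRP36 reading, and 17 without replicate 3 of that time. Which genes kept their call in these fits is not given, so the RRP36 call may rest on its failed reading. It was 4 without any 1 of the 10 min arrays or without 30 min replicate 1. It was 0 when replicates 1 and 2 were averaged to 1 array, which leaves fewer units a group and so less power.

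NOP4, an RNA-binding factor of the large subunit, had the lowest adjusted p of these 8 genes. Before 3AT it read 379, 469 and 576, and the 10 min arrays gave 727, 669 and 827. The 30 min arrays gave 262, 286 and 605, those of 60 min 376, 327 and 457, and the last, of 120 min, 274, 214 and 336. The arrays at 10 min lay above all others of these times, and those at 120 min below those at 0 min. RRP12, which serves export of both subunits, read 1200, 1230 and 1150 before 3AT, 1610, 1390 and 1770 after 10 min and, on the last arrays, 703, 576 and 758.

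**Figure D2:**
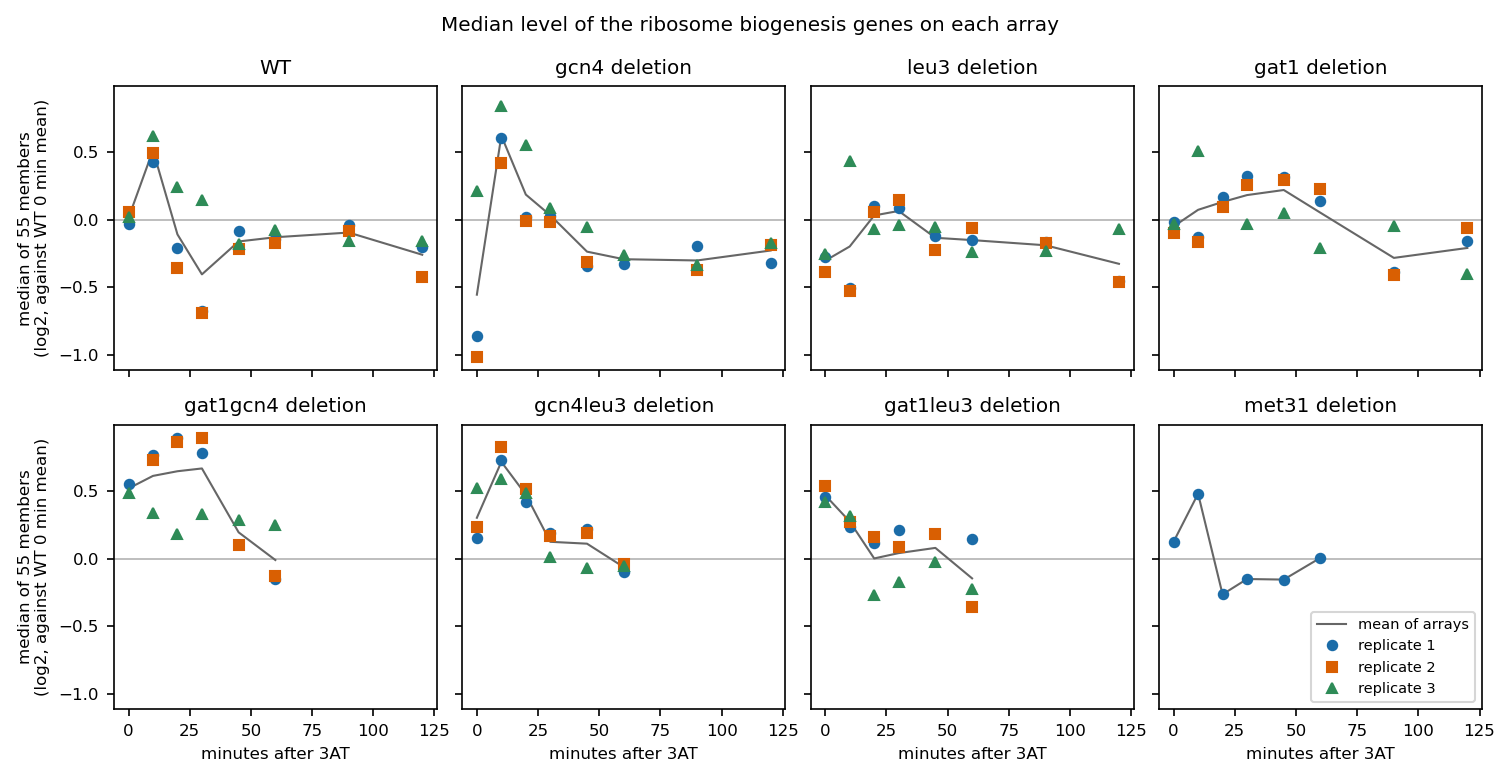
Median log2 level of the 55 genes on each array, relative to the WT 0 min mean, against minutes after 3AT, with 1 panel a strain, markers by replicate number and a line through the mean of the arrays. WT peaks at 10 min with all 3 arrays, gcn4 starts at -0.86 and -1.02 on replicates 1 and 2 but at 0.21 on replicate 3, and replicates 1 and 2 lie together where replicate 3 differs.

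Before 3AT the gcn4 strain was low in these genes on 2 of its 3 arrays. Of the 55 genes 3 passed the test against WT. NOP7, the yeast Pescadillo protein of the large subunit, was at -1.15 (SE 0.271, limma adjusted p = 0.0023), NOP6, a small subunit factor, at -1.07 (SE 0.295, adjusted p = 0.014) and RRP5 at -0.99 (SE 0.306, adjusted p = 0.038). These 3 fell and 0 rose, where 4.85% of all genes were called in either direction and 2.01% fell. The median of the 55 was -0.56, against 0.01 for all genes, and 51 lay below 0. In 5 members all gcn4 arrays lay below all WT arrays, against 9.3% of all genes.

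NOP7 read 448, 418 and 344 in WT and 102, 124 and 384 in gcn4. UTP20, a large scaffold protein of the small subunit processome, read 245, 194 and 248 in WT and 106, 34.3 and 385 in gcn4. UTP23, which acts in early small subunit processing, read 2840, 2640 and 1960 in WT and 1250, 771 and 2250 in gcn4. In each of these genes replicates 1 and 2 of gcn4 lay below every WT array and replicate 3 did not. NOP6 was the exception among them, with 1090, 1280 and 786 in WT and 411, 351 and 774 in gcn4, and no overlap.

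Over the group the array medians of gcn4 at 0 min were -0.86, -1.02 and 0.21. Replicate 3 is also the array on the other deposited scale, so replicate and scale cannot be told apart. Without it 24 members were called, without WT replicate 1 or 2 the count was 1, and without gcn4 replicate 1 or 2 it was 0, as it was with replicates 1 and 2 averaged. General stress genes moved with the same arrays: 14 of the 18 on that list rose in gcn4 at 0 min, with a median of 3.20, and their median on the arrays was 4.34, 4.01 and 0.72. The lowest of all 151 readings of a member fell on gcn4 at 0 min for 16 of the 55 genes, 5 on replicate 1 and 11 on replicate 2. The part of the stress genes in these values was not tested.

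From this start the gcn4 strain had, at 10 min after 3AT, the highest median change of the 49 comparisons. Of the 55 members 37 rose and 0 fell, where 9.57% of all genes were called in either direction and 4.87% rose. The median of the group was 1.14 log2 units, against -0.10 for all genes, and all 55 lay above 0. In 36 members the 3 arrays at 10 min lay above the 3 at 0 min, against 9.96% of all genes. This comparison at 10 min was added after results had been seen. By replicate number the median change was 1.5, 1.47 and 0.58. In every replicate 50 of the 55 genes were higher at 10 min (share of all genes not given). The array medians at 10 min were 0.61, 0.42 and 0.84, beside the 0.43, 0.50 and 0.62 of WT. Leaving out 1 array moved the count of calls from 11 (without gcn4 at 0 min replicate 2) to 48 (without replicate 3 of that time). It was 17 without 0 min replicate 1 and 24 without 10 min replicate 3. Averaging replicates 1 and 2 left 0 called, in a fit with fewer units a group and so less power.

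Among factors of the small subunit outside the named complexes, 14 of 16 members rose, with a median of 1.28. UTP20 read 106, 34.3 and 385 before 3AT and 433, 267 and 719 after 10 min. Its arrays overlapped between the times, though it had the highest rise of all 55 genes (1.75, SE 0.476, adjusted p = 0.0086). UTP23 rose by 1.57 (SE 0.298, adjusted p = 0.00019), with 5030, 2970 and 3930 at 10 min and no overlap. RRP5 rose by 1.51 (SE 0.306) and read 1400, 1030 and 1400 at 10 min, above its 370, 232 and 941 at 0 min. RRP12 rose by 1.47, UTP25 by 1.43 and UTP14 by 1.39. NOP9 (0.90) and NOP19 (0.40) did not pass the test.

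Of the 16 large subunit factors 13 rose, with a median of 1.29. NOP7 rose by 1.72 (SE 0.271, adjusted p = 3.1e-05): it read 102, 124 and 384 before 3AT and 556, 532 and 737 after 10 min, so that every later array lay above every earlier one. NOP8 rose by 1.61 (SE 0.428, adjusted p = 0.007), from 105, 194 and 398 to 580, 681 and 699. RRP1 rose by 1.54, NOP2, an rRNA methyltransferase, by 1.51, and NOP16, the brightest member of the list, by 1.33. NOC3, NOP12 and RRP14 missed the threshold with changes of 0.65, 1.07 and 1.21.

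The named processome complexes had fewer calls. Of the 6 UTP-A subunits UTP8 (1.54) and UTP9 (1.43) rose, and the other 4 lay between 0.81 and 0.99. Of the 4 UTP-B subunits UTP6 (1.26) and UTP21 (1.10) rose. Its anchor UTP18 read 312, 472 and 915 before 3AT and 1250, 1120 and 1460 after 10 min, without overlap, at 1.28 (SE 0.472, adjusted p = 0.068). Neither UTP-C member passed: UTP22 was at 0.32 (SE 0.337, adjusted p = 0.64) and RRP7 at 0.29. UTP22 read 502, 437 and 579 before 3AT and 362, 802 and 870 after 10 min, and WT read 333, 387 and 478 at 0 min.

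In the U3 and box C/D particle 2 of 4 members rose. RRP9, a U3-specific protein, rose by 1.08 (SE 0.238, adjusted p = 0.0011), from 561, 332 and 804 to 1210, 1020 and 1190. NOP1 rose by 0.79 (SE 0.232, adjusted p = 0.017). NOP58 read 2700, 3060 and 4970 before 3AT and 7270, 6990 and 5110 after 10 min, which did not overlap, but it missed the threshold at 0.88 (SE 0.365, adjusted p = 0.11). NOP56 was at 1.04.

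Of the 7 exosome members 4 rose, with a median of 0.80 for the list. RRP4 rose by 1.60 (SE 0.296, adjusted p = 0.00018), from 130, 215 and 555 to 825, 697 and 883. RRP6 rose by 1.03, RRP45 by 0.80 and RRP42 by 0.76. RRP46, a ring subunit, read 1120, 783 and 1370 before 3AT and 2080, 1820 and 2120 after 10 min, without overlap, but its 0.90 (SE 0.361, adjusted p = 0.10) missed the threshold.

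**Figure D3:**
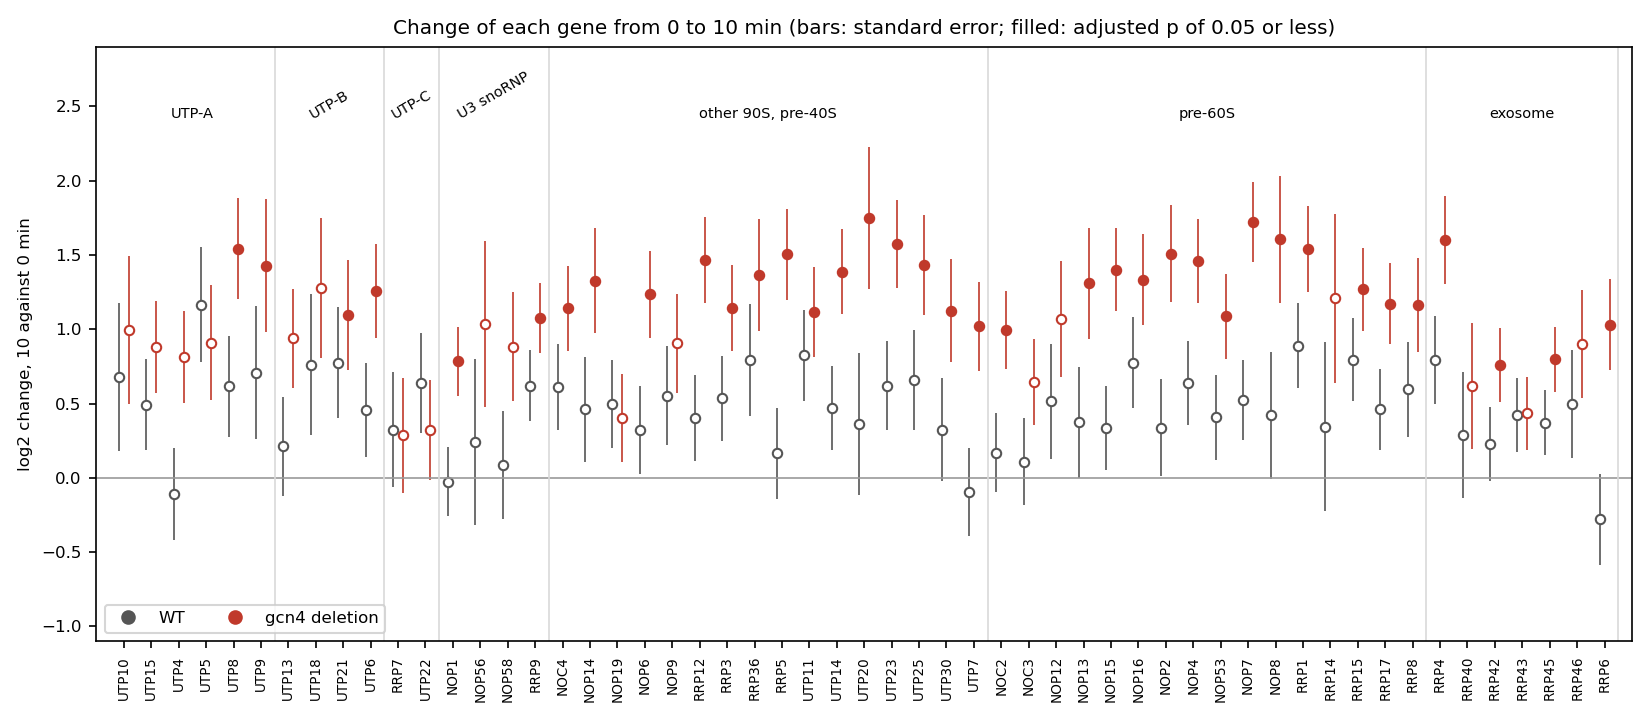
Log2 change from 0 to 10 min of each of the 55 genes in WT (grey) and gcn4 (red), ordered by role, with bars for the standard error and filled points for genes called by limma. All 55 red points lie above 0 and 37 are filled, while no grey point is filled and 51 lie above 0; the UTP-C pair RRP7 and UTP22 has the lowest red points.

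Other lists of the pathway were set beside the members. Among other ribosome assembly genes chosen as lists, 24 of 34 further small subunit factors and 31 of 49 further large subunit factors rose, with medians of 1.27 and 1.23. RIX1, a large subunit factor, rose by 2.11 and FAF1, a small subunit factor, by 1.93. SKI6 and DIS3, exosome genes that are also known as RRP41 and RRP44 and fall outside the naming rule, rose by 1.19 and 1.15. Of 14 genes of RNA polymerase I and its factors 6 rose, among them RPA43 (1.35) and RPA190 (1.41), which encodes the largest subunit. Of 12 RNA polymerase III genes 5 rose. Of 81 cytosolic ribosomal protein genes 1 rose (RPP1, 1.10), with a list median of -0.09. The symbol RPP1 names an RNase P protein in yeast, so the list holds 1 gene of another role. Of the 18 general stress genes 8 fell, with a median of -1.42, led by PGM2 (-2.27) and TPS2 (-2.21), and their part in the member values was not tested.

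**Figure D4:**
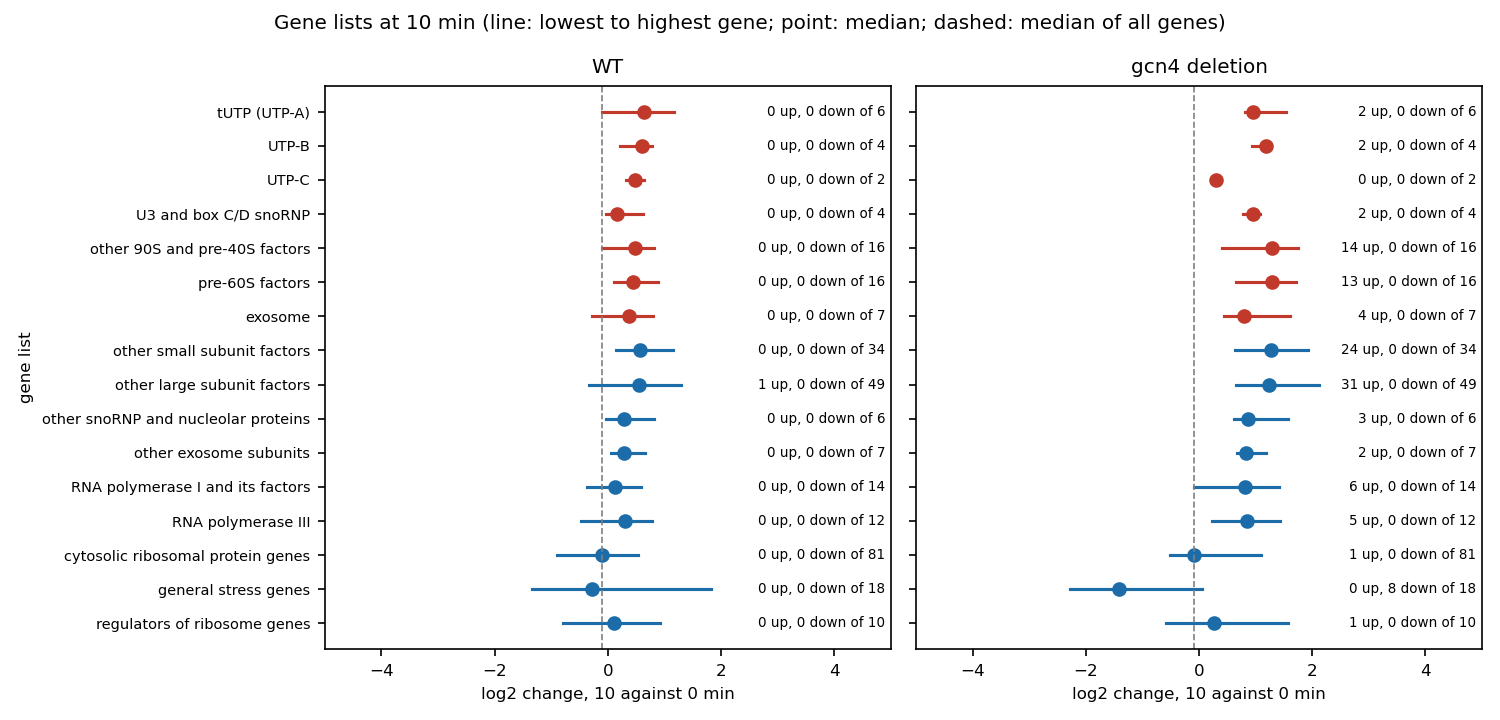
Log2 change from 0 to 10 min in WT and gcn4 by gene list, members in red by role and other lists in blue, with a line from the lowest to the highest gene, a point at the median and the counts of genes called. In gcn4 the assembly lists have medians between 0.30 and 1.29, ribosomal protein genes -0.09 and stress genes -1.42.

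At 20 min 11 members were called higher than at 0 min in gcn4, where 4.49% of all genes were called. The median of the 55 was 0.71 and 54 lay above 0. The 4 largest were NOP7 (1.37, SE 0.271, adjusted p = 0.00079), NOP15 (1.26), NOP6 (1.21) and NOP16 (1.19). Of the 16 large subunit factors 7 rose, against 3 of 16 other small subunit factors and 1 of 7 exosome genes; none of the UTP-A, UTP-B, UTP-C or box C/D members did. Arrays of the same replicate number deviated together here, though replicate 3 was also on the other deposited scale. With the replicate number as a block 18 members rose. The count ran from 0 (without gcn4 at 0 min replicate 1) to 35 (without replicate 3) on leaving out 1 array. It was 1 without 0 min replicate 2, 6 without 20 min replicate 2 and 4 without 20 min replicate 3, and was 0 with replicates 1 and 2 averaged. At 60 min 0 members were called, where 1.6% of all genes were, with 4 at an unadjusted p under 0.05 and a median of 0.22. RRP5 in gcn4 was at 360, 259 and 326 at 120 min, all below the 555, 417 and 415 of WT. The group as a whole was not lower there, with mean array medians of -0.23 in gcn4 and -0.26 in WT. No test compared the strains at 120 min.

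Whether gcn4 changed more than WT was tested as the difference of both changes. For 10, 20 and 60 min the median difference over the 55 genes was 0.72, 0.88 and 0.49, against 0.03, 0.05 and 0.09 over all genes. No member passed limma's threshold at any of these times, where 0.0535%, 0.321% and 0.143% of all genes did, although 15, 24 and 2 members had an unadjusted p under 0.05. At 20 min the fit with the replicate block called 3. Array weights called 32, 33 and 16 at 10, 20 and 60 min, all higher. Such weights can favour replicates 1 and 2, the closest pair in most groups and possibly technical repeats. Which arrays they favoured here is not given. On the scaled arrays alone, which leave out replicate 3 of gcn4, the counts were 12, 15 and 4, the last with 1 gcn4 array at 60 min, assumed to vary like the other groups. Without gcn4 at 0 min replicate 3 they were 8 at 10 min and 23 at 20 min.

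**Figure D5:**
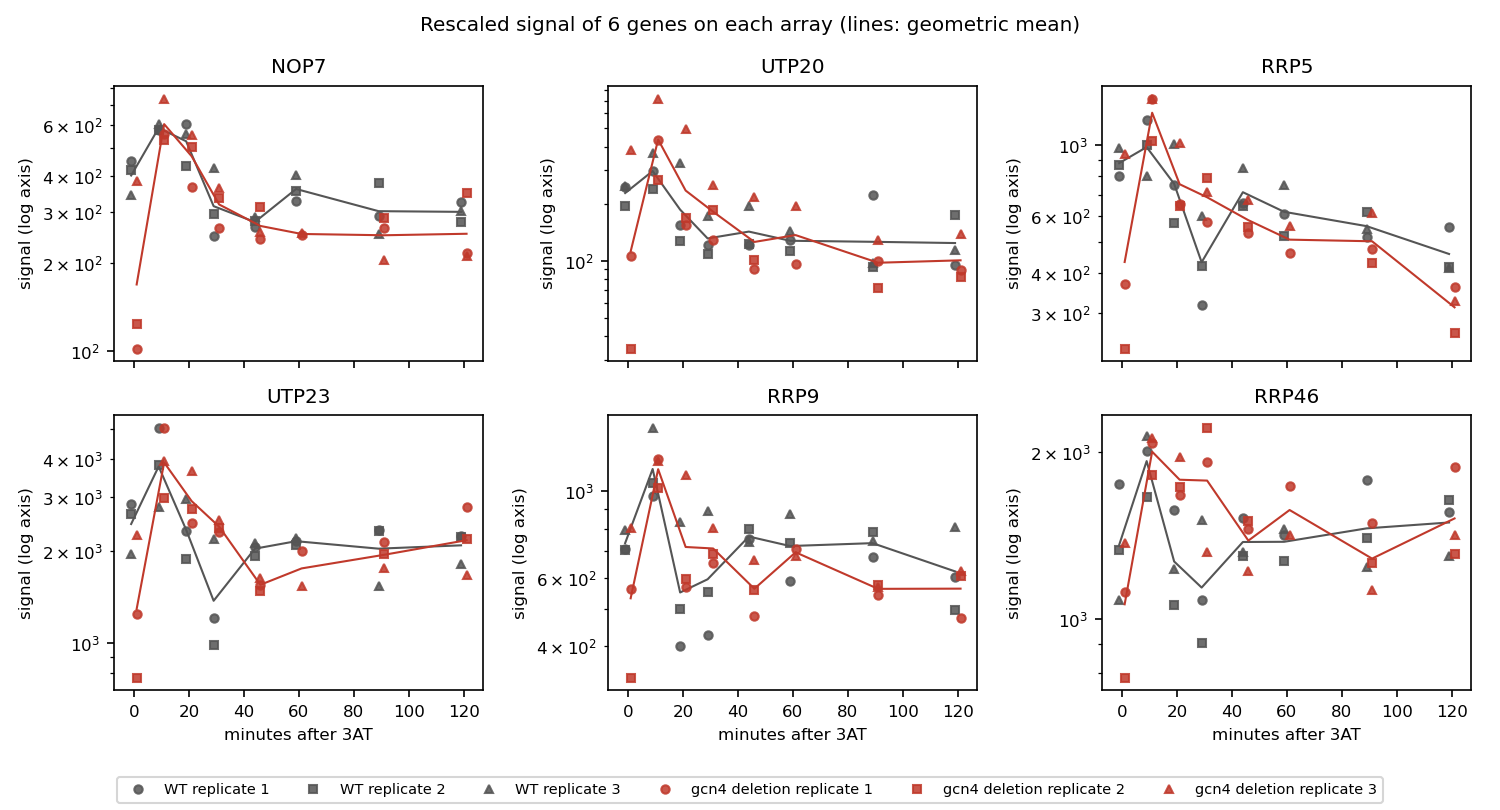
Rescaled signal on a log axis of 6 genes on every WT (grey) and gcn4 (red) array against minutes after 3AT, with the replicate shown by marker and lines through the geometric means. At 0 min the gcn4 circles and squares (replicates 1 and 2) lie low, for example 102 and 124 for NOP7, and at 10 min both strains overlap in all 6 genes.

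At 0 min leu3 had a median of -0.33 against WT with 50 of 55 genes below 0 and 21 with no overlap below WT, against 9.34% of all genes; 0 were called, where 0.178% of all genes were, and 4 had an unadjusted p under 0.05. RRP5 read 549, 630 and 516 there, below the 800, 866 and 983 of WT. Stress genes were above WT on all 3 arrays, with medians of 1.75, 1.60 and 1.40, and their part was not tested. In gat1 at 0 min the median was -0.05, with 0 calls, where 0.0891% of all genes were called, and 1 member at an unadjusted p under 0.05.

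At 10 min both strains split by replicate. Array medians were -0.50, -0.53 and 0.44 in leu3 and -0.12, -0.16 and 0.51 in gat1. By replicate number the median change from 0 min was -0.18, -0.12 and 0.77 in leu3, where all 55 genes were higher on replicate 3 and 23 and 22 on replicates 1 and 2. In gat1 it was -0.16, -0.17 and 0.55. No member was called in either strain, where 0.642% and 1.82% of all genes were, and 2 members in each had an unadjusted p under 0.05. UTP20 read 80.6, 29.1 and 287 in leu3 at 10 min, where the stress genes had medians of 2.33, 2.05 and -0.21; their part was not tested. The gat1 medians were then highest at 30 and 45 min on replicates 1 and 2, at 0.32 and 0.26 and at 0.32 and 0.30, while replicate 3 was at -0.03 and 0.05.

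At 20 min 0 members were called in leu3, where 1.1% of all genes were (10 members had an unadjusted p under 0.05), and 0 in gat1, where 1.87% were (7 members). At 60 min 0 were called in gat1, where 2.07% of all genes were (3 members). In leu3 at 60 min NOP56, a core protein of the box C/D particle, was called lower at -2.32 (SE 0.56, adjusted p = 0.0091), where 1.98% of all genes were called. Its arrays read 1450, 1480 and 1310 before 3AT and 1370, 1010 and 0.605 after 60 min, so the call rests on the failed reading, and without that array 0 members were called. Arrays of the same replicate number deviated together here, and the replicate block called 2 lower. On the scaled arrays alone, which leave out replicate 3, 7 members were called higher and 0 lower, and with array weights 7 higher and 1 lower. UTP13 read 609, 536 and 67.5 on the same arrays. The differences of leu3 and gat1 from the WT change gave 0 calls at 10, 20 and 60 min, where 0.0178%, 0.0891% and 0% (leu3) and 0.0713%, 0.0713% and 0% (gat1) of all genes were called, with 3, 7 and 2 members of leu3 and 3, 3 and 0 of gat1 at an unadjusted p under 0.05.

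The double deletions stood above WT before 3AT. For gat1gcn4, gcn4leu3 and gat1leu3 the median over the 55 genes was 0.53, 0.31 and 0.41, and it was positive on all 8 arrays. All arrays of these strains were on the other deposited scale than WT, so strain and scale cannot be told apart. All arrays lay above WT without overlap in 36, 19 and 27 members, against 21.5%, 16.4% and 9.45% of all genes. The gcn4leu3 array medians were 0.15, 0.23 and 0.52, and those of its stress genes 2.74, 2.63 and 0.90. In gat1gcn4 the members were at 0.55 and 0.49 and the stress genes at 2.155 and 0.87. In gat1leu3 the members were at 0.45, 0.54 and 0.42 and the stress genes at -0.22, -0.23 and 1.565. The part of the stress genes was not tested.

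Few single genes passed the test at 0 min. In gat1leu3 NOP4 (0.98, SE 0.282, adjusted p = 0.017), UTP14 (0.93), RRP12 (0.88) and NOP15 (0.85) rose, where 6.68% of all genes were called and 0.891% rose. NOP4 read 977, 795 and 1060, all above the 379, 469 and 576 of WT, and RRP12 read 2210, 2310 and 2110 against 1200, 1230 and 1150. These calls were lost without WT at 0 min replicate 1 or 2, without gat1leu3 at 0 min replicate 1 or 2, and with replicates 1 and 2 averaged. Without gat1leu3 replicate 3 UTP14 kept its call, with 1 member higher and 3 lower, and without replicate 1 it was 0 higher and 3 lower. Without WT replicate 3 the count of calls was 2. UTP9 was called lower at -1.37 with 566, 1.96 and 642, which rests on the failed reading, and was at 0.33 without that array. UTP18 in gat1gcn4 was called lower at -2.42, with 1130 and 2.7 on its 2 arrays, and was at 0.55 without the second; 4.38% of all genes were called in that comparison. In gcn4leu3 0 members were called, where 3.37% of all genes were, and 4 had an unadjusted p under 0.05.

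After 3AT the double deletions differed in course. In gcn4leu3 the group was highest at 10 min, with array medians of 0.73, 0.83 and 0.59. By replicate number the median change was 0.60, 0.57 and 0.07, with 51, 55 and 34 of 55 genes higher. Stress genes moved too, from 2.74, 2.63 and 0.90 at 0 min to 0.64, 1.08 and 0.12, and their part was not tested. RRP9 rose from 444, 481 and 970 to 1130, 1160 and 1340 (1.01, SE 0.238, adjusted p = 0.0093) and RRP42, an exosome ring subunit, from 435, 442 and 845 to 895, 1030 and 1100 (0.86, SE 0.247, adjusted p = 0.036). No arrays of these genes overlapped between the times. These 2 were the calls among the 55, where 2.66% of all genes were called, with a median of 0.41 and 23 members higher without overlap, against 8.11% of all genes. Arrays of the same replicate number deviated together here, and the replicate block called 5. Averaging replicates 1 and 2 called 0. Without gcn4leu3 at 0 min replicate 1 or 2, or 10 min replicate 3, the count was also 0. Without 10 min replicate 2 it was 1 and without 0 min replicate 3 it was 5. At 20 min 0 were called, where 1.16% of all genes were, with 3 members at an unadjusted p under 0.05. At 60 min 0 were called, where 1.85% were, with 16 such members and a median of -0.28; the block called 3.

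In gat1gcn4 the group stayed high for 30 min on replicates 1 and 2. The 10 min arrays had medians of 0.77, 0.73 and 0.34, those of 20 min 0.90, 0.86 and 0.18, and those of 30 min 0.78, 0.89 and 0.33. The highest of all 151 readings of a member fell on this strain at 10, 20 or 30 min for 5, 16 and 8 of the 55 genes. Replicate 3 at 20 min had the highest ratio of the 3′ to the 5′ actin probe set in the series, 8.50, a sign of RNA quality. The only member called at 10 and at 20 min was UTP18 (3.26 and 2.54), where 1.66% and 2.26% of all genes were called, and without the failed reading at 0 min the count was 0. At 60 min the arrays were at -0.15, -0.13 and 0.25, with a median change of -0.58 and 29 members lower without overlap, against 14.6% of all genes. Stress genes stood at 2.31, 2.34 and 0.72 on these arrays, after 0.58, 0.80 and 0.79 at 30 min, and their part was not tested. NOP13, an RNA-binding nucleolar protein, fell from 2120 and 1480 to 518, 374 and 1040 (-1.57, SE 0.415, adjusted p = 0.016) and NOP15 from 2180 and 2160 to 853, 799 and 1510 (-1.09, SE 0.315, adjusted p = 0.037), where 2.3% of all genes were called. UTP18 was called higher at 2.52, on the same failed reading. The count ran from 0 (without 0 min replicate 3) to 7 (without 60 min replicate 3), and was 1, a gene called higher, without 0 min replicate 1 or 60 min replicate 1 or 2. With replicates 1 and 2 averaged 0 members fell and 1 was called higher.

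In gat1leu3 the group went down from its high start. For 10, 20 and 60 min the median change was -0.16, -0.51 and -0.64, and 0 members were called in the first and the second, where 0.588% and 0.642% of all genes were, with 5 and 17 members at an unadjusted p under 0.05. At 60 min 10 members fell, where 7.27% of all genes were called and 3.51% fell, and 29 were lower without overlap, against 10.3% of all genes. By replicate number the median change was -0.35, -0.84 and -0.71, and 37 of the 55 genes were lower in every replicate. The share of all genes is not given. Arrays of the same number did not all deviate together here, so the pairing rests on the number alone.

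The members that fell at 60 min in gat1leu3 were NOP58, UTP5, RRP15, NOP7, NOP13, NOP4, NOC4, UTP4, NOP15 and NOP1, so 5 of the 16 large subunit factors, 2 of the 4 box C/D members, 2 of the 6 UTP-A subunits and 1 other small subunit factor. NOP58 read 7090, 7470 and 6010 before 3AT and 3650, 2480 and 2180 after 60 min, with no overlap (-1.33, SE 0.365, adjusted p = 0.012). UTP5 went from 889, 1250 and 964 to 416, 596 and 253 (-1.33, SE 0.387, adjusted p = 0.02). RRP15 went from 791, 671 and 959 to 339, 267 and 374 (-1.26, SE 0.281, adjusted p = 0.0018). NOP7 went from 668, 745 and 545 to 259, 298 and 284 (-1.16, SE 0.271, adjusted p = 0.0026). The 60 min arrays of UTP5, RRP15 and NOP7 lay below all WT arrays at 0 min (NOP7 there read 448, 418 and 344), and those of NOP58 overlapped WT at 4170, 3180 and 4920.

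Leaving out 1 array moved the count of calls in gat1leu3 at 60 min from 4 (without 0 min replicate 2) to 14 (without 0 min replicate 1). It was 7 without 60 min replicate 2 and 6 without 60 min replicate 3, and averaging replicates 1 and 2 left 0. Array weights left 2, both lower. Replicate 2 at 60 min had an actin ratio of 3.30. Replicate 3 at 60 min held 38 genes with a median signal of at least 200 below its floor. On it UTP4, called lower, had its lowest reading of all arrays, 27.4. UTP9 was called higher at 1.59 through its failed reading at 0 min and was at -0.11 without the array of that reading. Medians of other lists were -0.71 for the further large subunit factors and -0.61 for RNA polymerase I, of which 2 of 49 and 0 of 14 fell. Ribosomal protein genes had a median of -0.09. Stress genes stood at 0.12, 0.096 and 0.25 on the 60 min arrays, after -0.22, -0.23 and 1.565 at 0 min. Their part was not tested. The difference from the WT change at 60 min had a median of -0.48 and 0 calls, where 0% of all genes were called, with 10 members at an unadjusted p under 0.05.

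The other differences of the double deletions from the WT change gave 1 call, UTP18 in gat1gcn4 at 20 min, where 1.53% of all genes were called. At 10 min they gave 0 calls in all 3 strains (gat1gcn4, gcn4leu3, gat1leu3), where 0.891%, 0.0891% and 1.44% of all genes were called, and 5, 2 and 18 members had an unadjusted p under 0.05. Their medians at 10 min were -0.37, -0.05 and -0.66. At 20 min gcn4leu3 and gat1leu3 gave 0, where 0.178% and 1.35% were called (7 and 3 members), and the replicate block called 1 in gcn4leu3. At 60 min gat1gcn4 and gcn4leu3 gave 0, where 1.09% and 0.178% were called (6 and 2 members).

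The met31 strain, with 1 array a time and no test, had group medians against WT at 0 min of 0.13, 0.48, -0.26, -0.15, -0.16 and 0.01 for 0, 10, 20, 30, 45 and 60 min. Its 10 min array was the highest of the 6.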

How the data were processed

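Total RNA of 151 samples was hybridised to single-colour Affymetrix arrays. The deposited intensity of each probe set is linear and, per the submitters' processing notes, came from MAS5 (version unstated in the sources used here). Each array was multiplied by 1 factor to a 2% trimmed mean of 500. Of 9335 probe sets, 6504 name 1 gene; for genes with several, unshared ones came first, then the brightest. A gene was kept if some group had at least 2 of its 3 arrays, or 1 of 2, above the floor. Tests used limma 3.58.1 in R 4.3.3 on log2(signal + 16), which understates changes of dim genes, with lmFit and eBayes (trend), 1 coefficient a group, 145 arrays in 1 fit (95 residual degrees of freedom), and two-sided Benjamini-Hochberg adjusted p over 5611 genes at 0.05. The 49 comparisons include 12 at 10 min added after results were seen.

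The members and gene lists were chosen with earlier results of these data known. Named were up to 4 called members with the largest rise and 4 with the largest fall in a comparison, 1 anchor a role (its highest mean signal) and up to 2 called genes of each other list; others in the text were chosen after their values were seen. On simulated data for gcn4 at 10 against 0 min over 5611 genes, 40% of changes of 1 log2 unit and 93% of changes of 2 were called. There were 7 false calls among the unchanged genes. The simulated arrays varied independently, without the likeness of replicates 1 and 2 or failed readings, so these shares may not hold for the real arrays.

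Arrays with the same replicate number deviated together in 10 of 25 comparisons within a strain and 1 of 6 with WT. There every correlation of their deviations was over 0.1, as for WT and gcn4 at 10 against 0 min. In gcn4 and leu3 replicate 3 was also on the other deposited scale. A shared culture and a shared scale cannot be told apart there. The main fit held no replicate block, so counts of calls are unpaired unless the block is named. The block was run only as an alternative. The labels describe 1 large culture sampled repeatedly, without tying it to a replicate number. The alternatives were another scaling, pseudocount, filter, array set, array weights, the replicate block and leaving out single arrays, and, added later, averaging replicates 1 and 2 and leaving out arrays with an actin ratio above 3. Averaging leaves fewer units a group and mixes means with single arrays, so lost power may also lower its counts, which was not tested. A planned search of promoters for motifs was not run.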

Additional observations from a re-analysis of the deposited data

Results flagged for a closer look

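1 result differed between strains by the test of the difference itself. UTP18 in gat1gcn4 had a change at 20 min that exceeded the WT change by 2.63 log2 units (SE 0.708, limma adjusted p = 0.026). It rests on the reading of 2.7 in gat1gcn4 at 0 min replicate 3, beside 1130 on replicate 1. Without that array the difference was -0.34.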

How the results depend on the processing

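Counts are of the 55 genes called. The share of all genes called is not given for these alternatives, so a shift need not be particular to the members. The filter on dim genes changed none of the 50 counts. Quantile normalization gave 8 for gcn4 against WT at 0 min and 2 for leu3 at 60 min. Median centring gave 5 and 2 for the same, and 1 each for gat1leu3 at 20 min and for its difference from WT at 10 min. A pseudocount of 1 gave 1 for WT at 30 min, gat1leu3 at 10 min, and the gat1gcn4 differences from WT at 10 and 60 min, and 2 for gat1leu3 at 20 min. The scaled arrays alone gave 3, 4 and 2 for WT at 10, 30 and 120 min and 19 for the F-test. They gave 33 for gcn4 against WT, 22 and 7 for gcn4 at 20 and 60 min, and 12, 15 and 4 for its differences from WT (1 gcn4 array at 60 min). They gave 1 for leu3 against WT, 5 for leu3 at 20 min, 7 at 60 min (all higher, so reversed), 1 each for its differences at 20 and 60 min, and 2 and 1 for gat1 at 20 and 60 min.

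The replicate block gave 3 and 1 for WT at 30 and 120 min, 17 for the F-test, 18 for gcn4 at 20 min, 5 for gcn4 against WT, and 3 for its difference at 20 min. It gave 2 for leu3 at 20 and at 60 min, 9 for gat1gcn4 at 60 min and 1 each for its differences at 10 and 60 min. It gave 5 and 3 for gcn4leu3 at 10 and 60 min and 1 for its difference at 20 min, 2 and 19 for gat1leu3 at 20 and 60 min and 1 for its difference at 10 min. It moved no other count by over 1.5 times.

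Array weights gave 23, 7, 2, 3, 1 and 6 for WT at 10, 30, 45, 60, 90 and 120 min and 35 for the F-test. They gave 40 and 8 for gcn4 at 20 and 60 min, 43 for gcn4 against WT, and 32, 33 and 16 for its differences. They gave 1, 3 and 8 for leu3 at 10, 20 and 60 min (the last reversed), 7 against WT, and 5, 2 and 1 for its differences. They gave 2 and 3 for gat1 at 10 and 20 min, 1 against WT and 1 for its difference at 10 min. They gave 1 for the gat1gcn4 difference at 10 min, 2 for gat1leu3 at 60 min and 10 for its difference at 10 min. They gave 23, 12 and 17 for gcn4leu3 at 10, 20 and 60 min, 8 against WT, and 6, 12 and 6 for its differences.

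With replicates 1 and 2 averaged, chosen after seeing the data, the count was 0 for the F-test, gcn4 at 10 and 20 min and against WT, gcn4leu3 at 10 min, gat1leu3 at 60 min and against WT, and gat1gcn4 at 20 min and its difference there, and 1 for gat1gcn4 at 60 min (reversed). Without arrays of a high actin ratio, also chosen later, it was 1 for WT at 30 min and gcn4leu3 at 60 min, 5 for gat1gcn4 at 60 min and 2 against WT, 6 for gcn4 against WT and 2 for leu3 at 60 min.

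Leaving out 1 array gave 0 to 11 for WT at 30 min and 3 to 17 for the F-test. It gave 11 to 48, 0 to 35 and 0 to 5 for gcn4 at 10, 20 and 60 min, 0 to 24 against WT, and 0 to 8 and 0 to 23 for its differences at 10 and 20 min. It gave 0 to 2 for leu3 at 60 min and 0 to 1 for its difference there, and 0 to 1 for gat1 at 10 min. For gat1gcn4 it gave 0 to 7 at 60 min and 0 to 1 at 10 and 20 min, against WT and for all differences. For gcn4leu3 it gave 0 to 5, 0 to 2 and 0 to 2 at 10, 20 and 60 min and 0 to 1 for its difference at 20 min. For gat1leu3 it gave 0 to 4 at 10 and 20 min and against WT, 4 to 14 at 60 min, and 0 to 1, 0 to 3 and 0 to 2 for its differences. The balance of higher against lower calls reversed at 1 call in gat1gcn4 at 60 min without 0 min replicate 1 or 60 min replicate 1 or 2, and at 3 and 4 calls in gat1leu3 against WT without its replicate 1 or 3. UTP18 in gat1gcn4 turned to 0.55 against WT, -0.43 at 20 min, -0.45 at 60 min and -0.34 for the difference at 20 min without 0 min replicate 3. Without 0 min replicate 1, which leaves the failed reading alone, they were -5.39, 5.52, 5.49 and 5.60. UTP9 in gat1leu3 turned to 0.33 against WT and -0.11 at 60 min without 0 min replicate 2. Without 0 min replicate 3 they were -2.27 and 2.49. The causes of the other shifts were not tested. Where an arm kept 1 array, it was assumed to vary like the other groups.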
